A study of Mus musculus with 16 samples.

Results

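Genes that carry the calcium cycle of the heart muscle cell were followed through the ChIP-seq peak lists of adult mouse cardiomyocytes with and without desmin. The 9 genes are Ryr2, Casq2, Trdn, Jph2, Atp2a2, Pln, Cacna1c, Slc8a1 and Camk2d, and their peaks are those that the authors' annotation assigned to them by the nearest transcription start. They held 127 H3K27Ac peaks and 1 lamin A/C peak, 128 of the 56149 peaks in all 8 lists, and they are 9 of the 11472 genes with a peak in any list. The antibodies recognised either lamin A/C, which lines the inside of the nuclear envelope, or acetylation of histone H3 at lysine 27 (H3K27Ac), which active enhancers and promoters carry. Cells came from Des+/+ mice or from Des-/- mice, which lack the muscle intermediate filament protein desmin, at 3 months of age. They were taken without exercise (basal) or after swimming exercise (swim). Mice of both genotypes also carried a GFP reporter driven by the cardiac αMHC promoter, and had been backcrossed to a common wild-type strain. Each of the 8 combinations of antibody, genotype and condition had 1 library, with chromatin pooled from several mice, and 1 peak list. No spread between replicates could therefore be measured, no test between groups was possible, and the intervals below are 95% intervals that cover counting error only.

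In a heart muscle cell the action potential opens L-type calcium channels (Cacna1c encodes the pore) in the surface membrane, and the calcium that enters opens ryanodine receptors (Ryr2) in the sarcoplasmic reticulum, the internal calcium store. Junctophilin (Jph2) holds the membranes of both close together, while triadin (Trdn) and calsequestrin (Casq2) form the part of the release unit inside the store. For relaxation the pump SERCA2a (Atp2a2), restrained by phospholamban (Pln), returns calcium to the store, the sodium-calcium exchanger (Slc8a1) removes it from the cell, and the kinase CaMKII delta (Camk2d) tunes several of these proteins by phosphorylation.

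The H3K27Ac lists held 15757 peaks for Des+/+ and 16638 for Des-/- in the basal state and 11157 and 10407 peaks after swimming, with a lowest peak height of 15 overlapping reads in each. A gene without a peak is therefore one whose signal stayed under the limits of that list, not one without acetylation. Des, the deleted gene, carried 2 or 3 peaks in every list, which do not test the labels because the extent of the deletion was not examined. Its highest peak was of 30 reads in Des+/+ and 46 in Des-/- in the basal lists, and of 24 and 37 after swimming. Of 12 cardiomyocyte marker genes, 11 had a peak in each list except Des-/- swim, where 8 had one. Actc1, Mybpc3 and Myl2 were without a peak only there, and Nppa had none in any of the 4 lists. Endothelial markers were also present, with 8, 8, 7 and 6 of 8 genes in Des+/+ basal, Des-/- basal, Des+/+ swim and Des-/- swim, the order used for every set of 4 values. Peaks at markers of fibroblasts (0 to 3 of 8 genes), leukocytes (0 or 1 of 8) and smooth muscle and pericytes (0 or 1 of 8) were few, and Col1a2, Col3a1, Ptprc and Myh11 had no peak in any list. Mean input height under the peaks was 2.80 to 3.06 reads in 3 lists and 5.48 reads in Des-/- swim.

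The calcium handling genes carried 40 H3K27Ac peaks in Des+/+ and 35 in Des-/- cells in the basal state, and 32 and 20 after swimming. With every list reduced to its 10407 highest peaks the counts were 21, 20, 31 and 20, so that Des+/+ swim held most and Des-/- swim as many as Des-/- basal. In the full lists the members' peaks were 0.254% (0.186 to 0.345, Wilson), 0.210% (0.151 to 0.292), 0.287% (0.203 to 0.405) and 0.192% (0.124 to 0.297) of their lists, and these intervals overlap. Peaks of this mark can be called as 1 broad stretch or as several short ones, so the bases covered were counted as well. The members' peaks covered 61.8, 48.5, 41.8 and 21.1 kb, or 0.360, 0.264, 0.383 and 0.202% of all bases covered in each list. The 2 swim lists covered nearly equal lengths of the genome, 10.9 Mb in Des+/+ and 10.4 Mb in Des-/-, whereas the members' share in Des-/- swim was 0.202 against 0.383%. All 9 genes had a peak in Des-/- basal and Des+/+ swim, and 7 had one in Des+/+ basal and Des-/- swim, where Casq2 and Trdn had none.

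**Figure D1:**
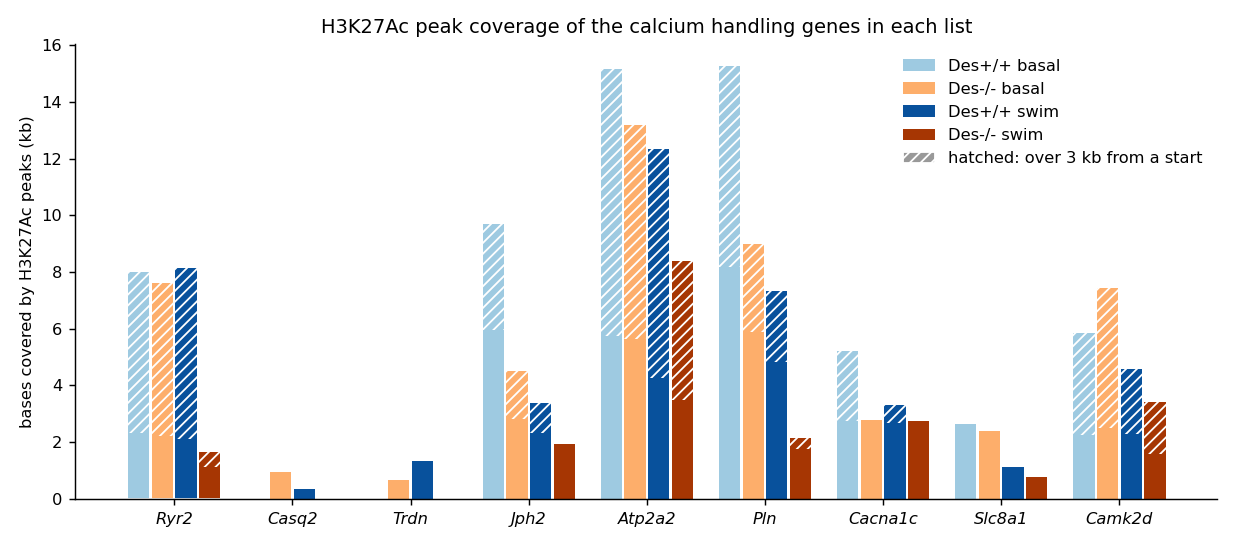
Bases covered by H3K27Ac peaks (kb, vertical axis) at each of the 9 genes, with 1 bar for each list and the part over 3 kb from a transcription start hatched. Ryr2 covers 7.61 to 8.15 kb in 3 lists and 1.67 kb in Des-/- swim, and Atp2a2 is the gene with most covered bases in every list except Des+/+ basal, where Pln covers slightly more.

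Much of this coverage lay away from the gene starts. Peaks over 3 kb from a start were 27 of 40, 19 of 35, 16 of 32 and 9 of 20, against 28.5, 28.8, 25.6 and 22.7% of all peaks in these lists. The distal peaks of the members covered 32.0, 22.7, 20.6 and 7.65 kb, which was 0.721, 0.489, 0.781 and 0.365% of all distal bases in the list. Their peaks within 3 kb of a start covered 29.8, 25.8, 21.3 and 13.4 kb, or 0.234, 0.188, 0.257 and 0.161% of the promoter bases in the list. Both kinds had their smallest share in Des-/- swim. Overlap with an annotated exon of any gene was found for 10, 12, 10 and 5 of the members' peaks, against 64.6, 64.1, 65.4 and 68.0% of all peaks in the same lists.

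When the peaks of all 4 lists were merged, the members had 43 regions, of which 11 carried a peak in all 4 lists, 6 in 3, 6 in 2 and 20 in 1. The share found in all 4 lists was 25.6%, against 37.7% of the 18277 regions of the series. The 6 regions found in exactly 3 lists were all without a peak in Des-/- swim, against 54.2% of such regions over the whole genome. They are the region of Ryr2 furthest upstream, an intronic region of Jph2, a region of Atp2a2 and 3 regions of Pln. In 8 of the 11 regions present in all lists the height was lowest in Des-/- swim, against 26.3% of such regions over the genome. The median height in these 11 regions was 32, 30, 28 and 21 reads.

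The sequence under 4 distal regions is shown because their summits, the positions of greatest height, lay within 200 bp of each other in 3 or more lists and so point to the same place in separate libraries. Each window is 201 bases of the plus strand of GRCm38, centred on the median summit, and none of them overlaps an exon. Letters in capitals mark a match to 1 of 7 patterns searched on both strands: AGATAA for GATA factors, GGAATG for TEAD factors, AGGTGT for T-box factors, AAGGTCA for ERR receptors, TATAAA for the TATA box, and the MEF2 site and CArG box. Each window shown here held at most 1 match, so no matches overlap. The windows are those of Ryr2 at -27.2 kb, chr13:12134061-12134261, and of Atp2a2 at -7.17 kb, chr5:122509299-122509499, which lacked a peak in Des-/- swim, and those of Atp2a2 at -9.26 kb, chr5:122511387-122511587, and of Camk2d at 96.8 kb inside the gene, chr3:126693020-126693220, which had one in all 4 lists.
Ryr2 upstream, -27.2 kb: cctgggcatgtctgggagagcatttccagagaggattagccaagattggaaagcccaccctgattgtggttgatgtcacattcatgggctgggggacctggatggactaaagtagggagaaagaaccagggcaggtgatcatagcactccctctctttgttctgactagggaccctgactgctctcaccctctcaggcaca
Atp2a2 upstream, -7.17 kb: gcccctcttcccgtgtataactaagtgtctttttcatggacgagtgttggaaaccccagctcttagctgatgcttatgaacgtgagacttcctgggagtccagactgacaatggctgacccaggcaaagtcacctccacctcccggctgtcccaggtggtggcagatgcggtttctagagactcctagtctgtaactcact
Atp2a2 upstream, -9.26 kb: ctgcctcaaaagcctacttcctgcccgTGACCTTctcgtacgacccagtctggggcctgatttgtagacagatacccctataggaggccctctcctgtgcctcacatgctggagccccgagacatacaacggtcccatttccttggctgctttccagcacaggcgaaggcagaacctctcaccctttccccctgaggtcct
Camk2d intron, 96.8 kb: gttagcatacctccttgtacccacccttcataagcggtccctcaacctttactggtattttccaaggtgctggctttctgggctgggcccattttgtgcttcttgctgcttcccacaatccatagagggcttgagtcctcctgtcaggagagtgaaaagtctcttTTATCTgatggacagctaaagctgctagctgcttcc
The Atp2a2 window at -9.26 kb held an ERR match and the Camk2d window a GATA match, while the other 2 held none of these letters. Among the 4493 distal summit windows of Des+/+ basal, an ERR match was present in 4.87% and a GATA match in 8.37%. G and C made up 53.2% of the Ryr2 window, 52.7 and 57.7% of the Atp2a2 windows and 49.8% of the Camk2d window, against a median of 50.7% among those windows.

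Promoter sequence was taken from RefSeq (GRCm38), where 7 of the 9 genes matched. The 200 bases before the start are shown for Ryr2, Casq2, Pln and Slc8a1, because the lists differ in whether a peak was present at these starts or reached them. They lie at chr13:12106946-12107145 (minus strand), chr3:102086215-102086414 (plus strand), chr10:53337486-53337685 (plus strand) and chr17:81738388-81738587 (minus strand).
Ryr2 promoter: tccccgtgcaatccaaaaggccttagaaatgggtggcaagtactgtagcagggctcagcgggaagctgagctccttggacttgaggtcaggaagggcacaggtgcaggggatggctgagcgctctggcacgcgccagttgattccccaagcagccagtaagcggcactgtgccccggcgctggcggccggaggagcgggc
Casq2 promoter: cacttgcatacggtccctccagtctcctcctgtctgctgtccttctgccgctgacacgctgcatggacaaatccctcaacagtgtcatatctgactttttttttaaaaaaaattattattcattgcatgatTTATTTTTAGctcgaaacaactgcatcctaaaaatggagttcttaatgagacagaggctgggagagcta
Pln promoter: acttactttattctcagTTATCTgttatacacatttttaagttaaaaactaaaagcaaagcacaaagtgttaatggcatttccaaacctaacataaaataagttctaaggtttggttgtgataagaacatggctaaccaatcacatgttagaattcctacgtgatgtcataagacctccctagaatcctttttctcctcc
Slc8a1 promoter: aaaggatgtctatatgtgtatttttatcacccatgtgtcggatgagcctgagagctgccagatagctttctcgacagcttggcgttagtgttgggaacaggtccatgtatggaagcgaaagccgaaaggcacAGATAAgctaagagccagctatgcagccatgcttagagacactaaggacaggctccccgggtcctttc
These windows were overlapped by a peak in Des+/+ swim for Ryr2, in no list for Casq2, in Des+/+ basal and Des+/+ swim for Pln, and in every list except Des-/- swim for Slc8a1. Every list held a peak within 3 kb of the start at Ryr2, Pln and Slc8a1, so these overlaps depend on where peaks ended. At Ryr2 the Des+/+ basal peak ended at 12106920, just short of the window, and the Des+/+ swim peak at 12106990. The Casq2 window held a MEF2 match, present in 2.29% of the 32851 RefSeq promoters, and the Pln and Slc8a1 windows a GATA match, present in 7.80%. Their G and C content was 64.0% in Ryr2, 41.5% in Casq2, 33.0% in Pln and 49.5% in Slc8a1, against a median of 53.0%, and the number of CpG pairs was 11, 4, 1 and 6, against a median of 5.

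Of the release unit, Ryr2, which encodes the channel through which the store empties, had 6, 5, 6 and 2 peaks, the last of these in Des-/- swim. The gene lies on chromosome 13 (11553102 to 12106945, minus strand), and its peaks fell into a stretch over the start and an intergenic group 21.3 to 27.6 kb upstream. The upstream group covered similar lengths in 3 lists and a much shorter length in Des-/- swim. Its larger region, chr13:12128223-12133628, was covered over 4949, 4955, 5299 and 547 bp, with heights of 26, 25, 24 and 16 reads. The intervals of 26 reads (17.0 to 38.1) and 16 reads (9.15 to 26.0) overlap. The smaller one, whose centre is printed above, had heights of 24, 24 and 15 reads, the last at the lowest listed height, and no peak in Des-/- swim. Over the start the highest peaks were of 22 reads (13.8 to 33.3, exact Poisson), 37 (26.1 to 51.0), 32 (21.9 to 45.2) and 23 (14.6 to 34.5) across the lists, and these intervals overlap. Covered bases of Ryr2 were thus 4.88 times lower in Des-/- swim than in Des+/+ swim, and in the basal lists they differed by 1.05 times. In Des+/+ swim and Des-/- swim the upstream peaks covered 6023 and 547 bp, and those near the start 2123 and 1122 bp. The nearest-start rule rather than a measured contact gives the upstream peaks to Ryr2.

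Casq2, which encodes the calcium buffer of the store, and Trdn, which encodes the protein that anchors it to the release channel, had low peaks in the same 2 lists. At Casq2 (chromosome 3, 102086415 to 102146514) Des-/- basal held 2 peaks of 16 and 18 reads and Des+/+ swim 1 peak of 16 reads, all within the first 1.12 kb of the gene. At Trdn (chromosome 10, 33080554 to 33476709) a peak of 17 reads in Des-/- basal and of 16 reads in Des+/+ swim lay over a deposited transcript start about 3.01 kb inside the longest annotated gene. These heights are near the minimum of 15, with intervals that together span 9.15 to 28.4 reads, so that presence and absence were not separable by height at either gene.

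Jph2, which encodes the protein that ties the store to the surface membrane, had 7, 4, 4 and 2 peaks. The Des+/+ basal list held a row of intronic peaks 33.2 to 39.0 kb into the gene (chromosome 2, 163336242 to 163397993, minus strand), of 17, 15, 19 and 19 reads. Only the peak nearest the start had a partner in another list, a peak of 21 reads in Des-/- basal. An intronic region 2.35 to 5.97 kb into the gene was covered over 3559, 834 and 591 bp and not at all in Des-/- swim. The start itself kept a peak in every list, of 32, 33, 30 and 21 reads, with input heights of 2, 2, 2 and 6 reads.

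**Figure D2:**
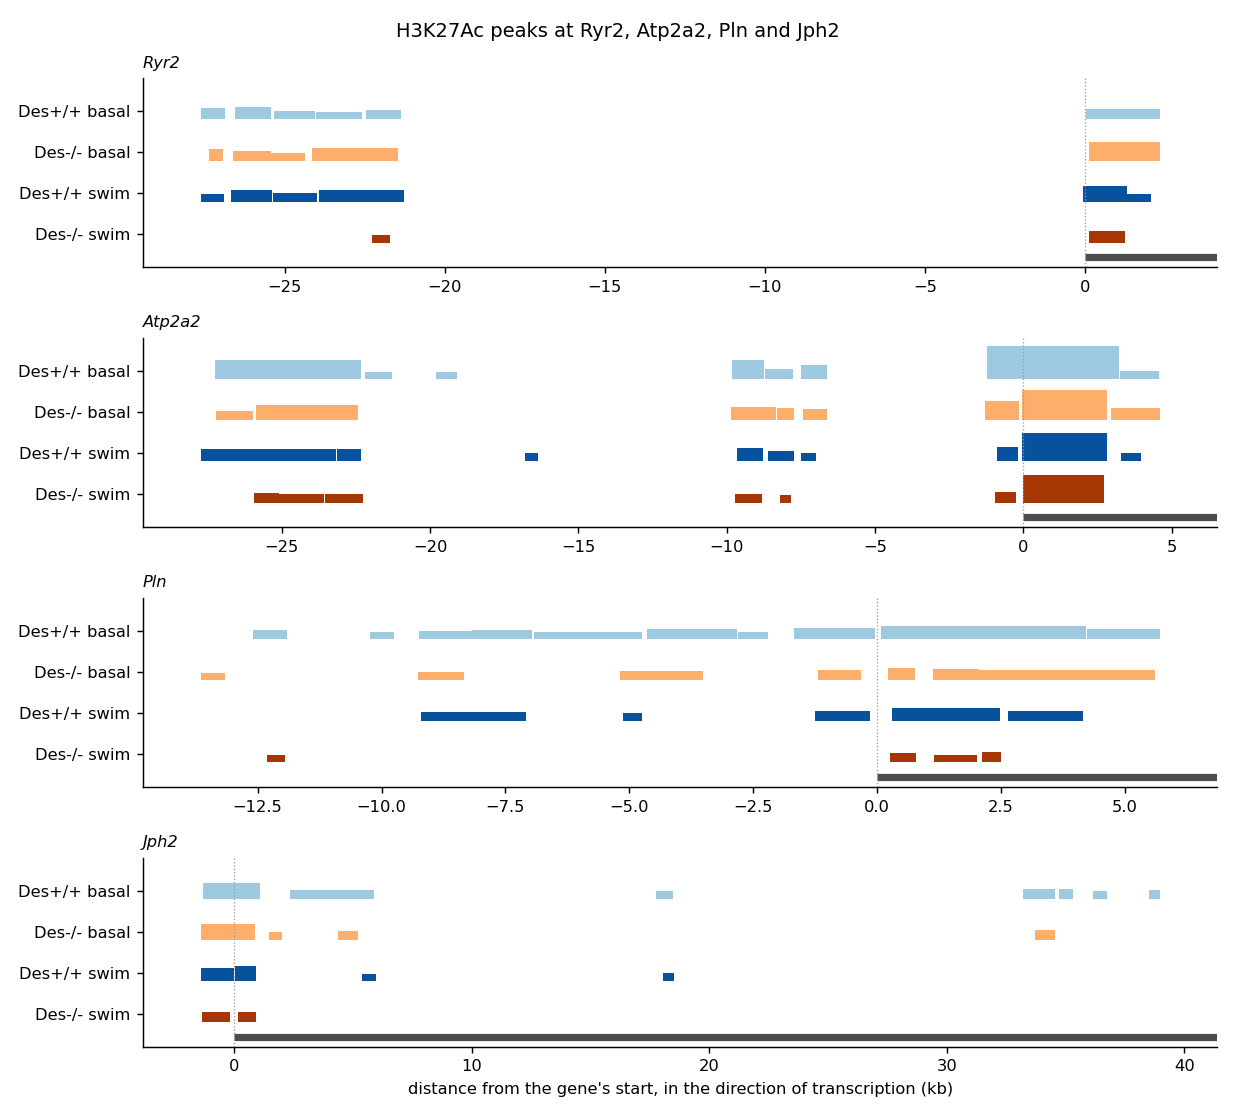
Each block is an H3K27Ac peak of Ryr2, Atp2a2, Pln or Jph2, drawn in 1 row for each list at its distance from the gene start (kb, horizontal axis, in the direction of transcription), with block height proportional to peak height in reads and the gene as a grey bar. The Ryr2 group upstream is wide in 3 rows and is a stretch of 547 bp in Des-/- swim, while the Atp2a2 start and its region at -9.26 kb carry a block in all 4 rows.

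Among the genes of calcium uptake, Atp2a2, the gene of the SERCA2a pump, had the highest member peak in every list. It carried 8, 8, 9 and 7 peaks, over 15139, 13184, 12329 and 8371 bp. Its highest promoter peak was of 66 reads (51.0 to 84.0), 61 (46.7 to 78.4), 57 (43.2 to 73.9) and 56 (42.3 to 72.7), higher than 92.5 to 96.8% of all peaks in the lists. These intervals overlap, while the input beneath the peak was 4, 4, 3 and 13 reads. Upstream of the gene (chromosome 5, 122453513 to 122502225, minus strand) were 2 intergenic regions shared by all lists. The nearer, at -7.74 to -9.85 kb, had its summit within 32 bp in all 4 lists, with heights of 39, 26, 26 and 17 reads. The farther, at -22.3 to -27.7 kb, covered 4907, 4688, 5390 and 3627 bp with heights of 39, 30, 24 and 20 reads. A region between them and the gene, at -6.62 to -7.50 kb, had 29, 22 and 16 reads and no peak in Des-/- swim. The height was lowest in Des-/- swim at both shared regions, and 3 more regions, of 15 or 16 reads, were each in 1 list only.

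Pln, which encodes the inhibitor of that pump, had 10, 7, 5 and 4 peaks over 15274, 8993, 7313 and 2137 bp. This small gene (chromosome 10, 53337667 to 53345987) lies inside the gene Cep85l, so the peaks upstream of Pln are annotated as intronic, except the one just before the start, which is annotated as promoter, and the nearest-start rule rather than a measured contact gives them to Pln. In Des+/+ basal the peaks ran with short gaps across the regions from -9.26 kb to 5.71 kb. Regions at -6.97 to -9.26 kb, at -2.82 to -6.92 kb and just before the start were each present in the other 2 lists but not in Des-/- swim. The region before the start, at -1.67 to -0.0520 kb, had 22, 20 and 21 reads in the 3 lists that held it. Inside the gene the highest peaks were similar, of 27 (17.8 to 39.3), 25 (16.2 to 36.9), 26 (17.0 to 38.1) and 21 reads (13.0 to 32.1). The covered stretch there shortened from 5590 and 5021 bp in the basal lists to 3692 bp (Des+/+) and 1777 bp (Des-/-) after swimming.

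For calcium entry and removal the start regions were the main signal. Cacna1c, the gene of the L-type channel pore (chromosome 6, 118587240 to 119196418, minus strand), kept a promoter peak of 2731, 2780, 2668 and 2760 bp with heights of 26, 30, 28 and 30 reads, and the intervals of these heights overlap. The summit of this peak also lay inside another coding gene, Dcp1b, in all 4 lists, so the signal need not belong to Cacna1c alone. RefSeq gives this gene 3 starts, and the peak overlapped the window before the outermost of them in all 4 lists and the other 2 in none. Intronic peaks 55.4 to 57.9 kb into the gene were listed only in Des+/+ cells, with 15 reads for both basal peaks and 18 reads for the swim peak. Slc8a1, the gene of the sodium-calcium exchanger (chromosome 17, 81373105 to 81738377, minus strand), had no distal peak in any list. Its promoter peaks were of 32 reads (21.9 to 45.2), 29 (19.4 to 41.6), 22 (13.8 to 33.3) and 19 (11.4 to 29.7), with total coverage of 2636, 2398, 1136 and 782 bp. The swim lists were the lower ones in both genotypes at Slc8a1. Its swim to basal ratios of height plus 1 were 0.697 in Des+/+ and 0.667 in Des-/-, near the medians of 0.719 and 0.740 over all genes.

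Camk2d, the gene of the main cardiac CaM kinase (chromosome 3, 126596302 to 126846326), had 4, 6, 3 and 3 peaks. As at Cacna1c, its promoter height was greater in Des-/- than in Des+/+ cells in both conditions, 59 reads (44.9 to 76.1) against 39 (27.7 to 53.3) in the basal lists and 47 (34.5 to 62.5) against 36 (25.2 to 49.8) in the swim lists. The intervals of the ratios, 0.993 to 2.33 and 0.828 to 2.07, include 1, and the median ratio over all genes was itself above 1, at 1.08 and 1.12. The intronic region at 95.9 to 98.4 kb, whose centre is printed above, had heights of 35, 37, 29 and 26 reads and a summit within 35 bp in all 4 lists. The 7 other peaks inside the gene, of 15 to 19 reads, were each found in 1 list only.

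**Figure D3:**
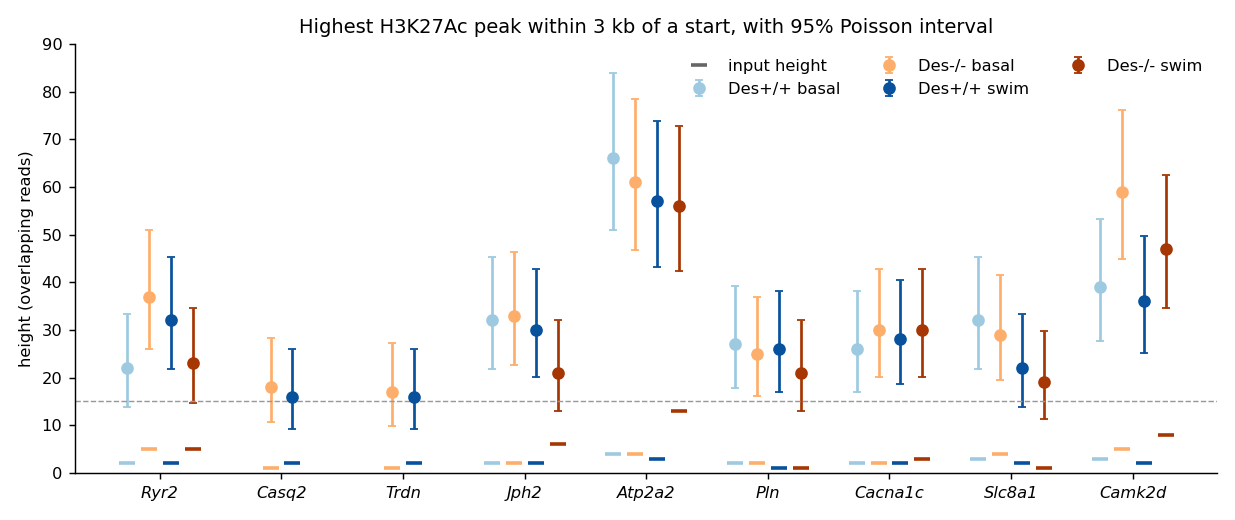
Height of the highest H3K27Ac peak within 3 kb of a start (reads, vertical axis) for each gene and list, with exact 95% Poisson intervals; short dashes give the input height and the broken line the lowest listed height of 15 reads. Atp2a2 is highest with 56 to 66 reads in all lists, Casq2 and Trdn have points of 16 to 18 reads in 2 lists only, and the intervals of the lists overlap at every gene.

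To ask whether desmin loss went with other peaks at these genes, the lists of the 2 genotypes were paired, and a peak was counted as unpartnered if it shared no base with a peak of the other list. In the basal pair 15 of 40 member peaks of Des+/+ (37.5%, 24.2 to 53.0) were unpartnered, against 14.5% of all peaks. Of the 35 in Des-/-, 9 were (25.7%, 14.2 to 42.1), against 19.7%. The unpartnered Des+/+ peaks were 4 each at Jph2 and Pln, 2 each at Atp2a2, Cacna1c and Camk2d and 1 at Slc8a1, and those of Des-/- were 4 at Camk2d, both of Casq2 and 1 each at Trdn, Jph2 and Pln. All of them were low, of 15 to 19 reads, and no member peak of 20 reads or more was unpartnered in this pair (0 of 18 in Des+/+ and 0 of 20 in Des-/-), where the share over all peaks of that height was 2.95 and 5.16%. Distal peaks are unpartnered more often in general: 13 of 27 distal member peaks of Des+/+ were, against 29.8% of all distal peaks, and 5 of 19 of Des-/-, against 33.4%.

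In the swim pair 17 of 32 member peaks of Des+/+ (53.1%, 36.4 to 69.1) had no partner in Des-/-, against 27% of all peaks, while 2 of 20 of Des-/- (10.0%, 2.79 to 30.1) had none in Des+/+, against 22.2%. The Des+/+ peaks were 4 of 6 at Ryr2, 4 of 5 at Pln, 3 of 9 at Atp2a2, 2 of 4 at Jph2 and 1 each at Casq2, Trdn, Cacna1c and Camk2d, and Slc8a1 alone had none. They ranged from 15 to 24 reads, with 15 of the 17 at 20 reads or less. With only peaks of 20 reads or more tested, 3 of 18 remained (16.7%), against 8.98%. By position, 10 of 16 distal member peaks of Des+/+ were unpartnered, with an interval of 38.6 to 81.5%, which includes the 47.3% of all distal peaks, and 7 of 16 within 3 kb of a start, against 20%. For Des-/- these were 2 of 9 distal peaks, against 34.3%, and 0 of 11 near a start, against 18.7%. Among all distal peaks of 20 reads or less the unpartnered shares were 60.9% in Des+/+ and 46.9% in Des-/-. Equal numbers of the highest peaks in both lists left 16 of 31 unpartnered in Des+/+ (51.6%), against 25.1%.

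**Figure D4:**
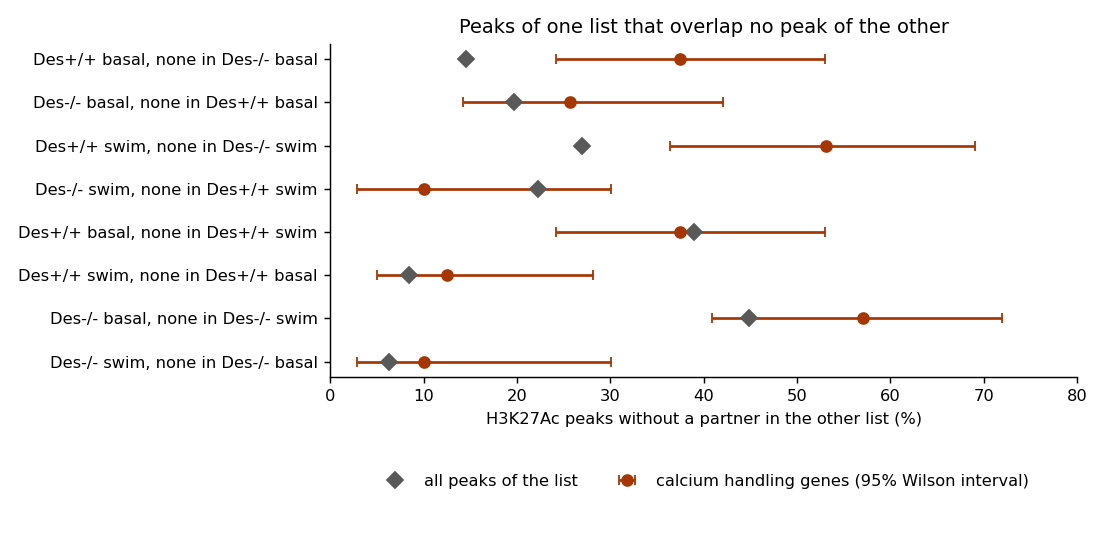
Percent of H3K27Ac peaks without a partner (horizontal axis) for the 8 ordered pairs of lists, with circles and 95% Wilson intervals for the calcium handling genes and diamonds for all peaks of the list. The interval lies above the diamond for Des+/+ against Des-/- in the basal state (37.5 against 14.5%) and after swimming (53.1 against 27%), and the diamonds of the other 6 pairs lie inside the intervals. The diamonds are not matched to the members' peaks for distance from a start or for height. The intervals treat peaks as independent, although many are neighbours at the same gene, and so may be too narrow.

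Covered bases gave the same order of the genotypes in the swim pair, but they are summed over the same peaks and are not separate support. With a change counted at 2-fold or more, coverage was lower in Des-/- swim than in Des+/+ swim at 4 of 9 genes, Ryr2, Casq2, Trdn and Pln, against 19.5% of the 8315 genes with a peak in either list, and higher at 0 of 9, against 17.5%. Ryr2 covered 4.88 times and Pln 3.42 times fewer bases in Des-/- swim, and the 5 members that were not called covered 1.19 times (Cacna1c) to 1.73 times (Jph2) fewer. Casq2 and Trdn had no peak in Des-/- swim and 1 peak of 16 reads each in Des+/+ swim, near the lowest listed height. In the basal pair Jph2 alone was lower in Des-/- (2.15 times, against 8.60% of genes), and Casq2 and Trdn, listed only in Des-/-, counted as higher (15.4% of genes). The cardiomyocyte markers covered 0.265, 0.237, 0.265 and 0.119% of all covered bases, the endothelial markers 0.331, 0.241, 0.224 and 0.324%, and each of the other 3 marker lists at most 0.0126%. Mean input height under the members' own peaks was 2.12, 2.29, 2.03 and 3.75 reads, with 13 reads as the highest single value in Des-/- swim. The part of these differences in the members' values was not tested, and with pooled cells fewer cardiomyocytes in the preparation and less acetylation per cell cannot be told apart.

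The height of the members' highest promoter peak was then compared between lists as a ratio of height plus 1, for the 7 genes with such a peak in both lists. In the swim pair the median ratio of Des-/- to Des+/+ was 0.870 (range 0.710 to 1.30) against a median of 1.12 over all 5410 genes, and in the basal pair it was 1.03 (0.909 to 1.65) against 1.08 over 8061 genes. Ryr2 had the highest ratio of the basal pair (1.65, 0.966 to 2.99). Jph2 (0.710, 0.381 to 1.26) and Ryr2 (0.727, 0.402 to 1.27) had the lowest ratios of the swim pair, and each interval includes 1. Between swim and basal the median was 0.939 in Des+/+ against 0.719 over all genes, and 0.800 in Des-/- against 0.740. Ryr2 was the member with the largest increase in Des+/+, from 22 to 32 reads (1.43, 0.819 to 2.63), a ratio above that of 99.7% of genes, though with an interval that includes 1.

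Swimming was compared with the basal state within each genotype, and each of these lists also enters a genotype pair above. In Des+/+, 15 of 40 member peaks of the basal list had no partner after swimming (37.5%), near the 39.0% of all peaks, and 4 of 32 swim peaks had none in the basal list (12.5%, against 8.39%). In Des-/-, 20 of 35 basal peaks had none after swimming (57.1%, 40.9 to 72.0), against 44.8% of all peaks, and 2 of 20 swim peaks had none in the basal list, against 6.28%. None of these intervals excludes the share over all peaks. Coverage was at least 2-fold lower after swimming at 3 of 9 genes in Des+/+ (Jph2, Pln and Slc8a1), against 39.4% of genes, and at 7 of 9 in Des-/-, all except Atp2a2 and Cacna1c, against 45.4%. When the coverage was divided by that of the whole list, these counts became 0 of 9, against 30.4% of genes, and 4 of 9 (Ryr2, Casq2, Trdn and Pln), against 34.7%. It was higher at Casq2 and Trdn in Des+/+ (2 of 9, against 3.94%), which had no basal peak, and at 0 of 9 in Des-/-, against 3.41%. Ryr2 covered 1.02 times its basal bases after swimming in Des+/+ and 0.219 times in Des-/-.

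A wider list of 48 other genes of calcium handling and its control was counted in the same way, and 40 of them had an H3K27Ac peak in some list. In the swim pair 13 of 29 genes with a peak were at least 2-fold lower in Des-/- (19.5% of all genes), 4 were higher (17.5%) and 12 were neither. By number of peaks, 11 genes had fewer in Des-/- swim, 7 had more and 11 had the same number. The shares over all genes by number of peaks are not given, so these counts have no background beside them. The median ratio of covered bases among the genes with a peak in both swim lists was 1.06, against 1.02 over all genes. In the basal pair 5 of 40 were lower, against 8.60% of genes, and 7 higher, against 15.4%. The list covered 0.553, 0.536, 0.547 and 0.385% of all covered bases. Among the genes named for a difference of 3 or more peaks or a lamin A/C peak, Srl, the gene of sarcalumenin, a calcium-binding protein of the store, had 7, 7, 6 and 3 peaks, and its covered bases in the swim lists were 6548 bp for Des+/+ against 1631 bp for Des-/-. Akap6, which encodes an anchor that holds protein kinase A near the nuclear envelope and the release channel, had 7, 6, 6 and 2 peaks, and 7181 against 2415 bp in the swim lists. Pde4d, the gene of a cyclic AMP phosphodiesterase, had 1, 3, 2 and 0 peaks, and Akap7, another kinase anchor, had 3 in each list.

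Across all 8 lists the genes whose peak numbers were most like those of Ryr2, by Euclidean distance, were Micall1 (distance 0, with the same 6, 5, 6 and 2 H3K27Ac peaks), Hipk3, Nceh1 and Ttc7b (1 each) and Akap6 (1.41). These are small counts, and 12 genes lay within the distance of Akap6.

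The lamin A/C lists were short, with 188, 831, 635 and 536 peaks at 169, 420, 408 and 295 genes, so that few peaks could fall on any 9 genes, and the members held 1. The 1 assigned peak was of 8 reads (3.45 to 15.8), the lowest height listed, over 179 bp of a Trdn intron, chr10:33104328-33104506, in Des+/+ basal. The other lists had 0 peaks of 831, 635 and 536, which allow shares of up to 0.361, 0.472 and 0.560%. Counting peaks that touch a gene body instead added the last exon of Atp2a2, in its 3' UTR, in 3 lists, with 8 reads in Des+/+ basal, 12 in Des-/- basal (6.20 to 21) and 12 in Des+/+ swim. It also added the last exon of Pln in Des+/+ swim, with 10 reads (4.80 to 18.4). The annotation gave these peaks to the neighbouring genes Anapc7 and Cep85l. No lamin A/C peak touched any of the 9 gene bodies in Des-/- swim. In the wider list Akap7 had a lamin A/C peak in Des-/- swim and Pde4d 1 in each swim list.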

How the data were processed

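The series has 16 samples, 8 of them inputs (chromatin sequenced without precipitation), and 1 peak list for each of the 8 precipitated libraries. Per the labels and the study's methods, the authors aligned reads to GRCm38 (mm10) with Bowtie2 2.4.4, used SAMtools 1.13, called peaks in each library against its input with their own scripts, and annotated them with ChIPseeker 1.36.0. Removal of duplicates, read extension and depth scaling are not given in the sources used here, and the depth of each library is unknown. The deposited height is a coverage signal (overlapping reads at the peak), as is the input height. The deposited fold change is the ratio of height plus 1 to input height plus 1 (100% of peaks), and the deposited distance to the nearest start is a score in bp. All deposited false discovery rates were at most 0.001.

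The members and gene lists were chosen with earlier results of these data known. A peak belonged to the gene of its deposited symbol, partners shared at least 1 bp, and promoter peaks lay within 3 kb of a start. Gene positions came from GENCODE M21 (GRCm38) and sequences from the RefSeq GRCm38 genome. Shares have 95% Wilson intervals, heights exact Poisson intervals and ratios of heights exact conditional binomial intervals. For counts of 0 the share allowed is 3 divided by the number counted. Reads need not be independent molecules, so that all of these cover counting error only. Neighbouring peaks of the same gene need not be independent either, so the intervals of shares may be too narrow. Every member was named. A gene of the wider list was named if it had a lamin A/C peak or differed by 3 or more H3K27Ac peaks between the swim lists, and for Ryr2 the 5 genes of nearest peak numbers were named. Distal windows were printed where 3 or more lists had summits within 200 bp. Analyses used Python 3.11.15, pandas 2.3.3, numpy 2.4.6, scipy 1.17.1, pysam 0.24.0 and matplotlib 3.10.9, and overlap and interval functions were tested on simulated data.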

Additional observations from a re-analysis of the deposited data

Results flagged for a closer look

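At 3 genes the number of H3K27Ac peaks moved in opposite directions in the groups compared. Each group has 1 library, so the difference was not tested, and most of the peaks concerned are near the lowest listed height of 15 reads. The share of all genes with such a change is not given, so it is not known whether the members differ from other genes in this. Casq2 changed by 1 peak from Des+/+ basal to Des+/+ swim and by -2 from Des-/- basal to Des-/- swim. Read by genotype, it changed by 2 from Des+/+ to Des-/- in the basal lists and by -1 in the swim lists. Trdn changed by 1 with swimming in Des+/+ and by -1 in Des-/-, and by 1 from Des+/+ to Des-/- in the basal lists and by -1 in the swim lists. Atp2a2 changed by 1 with swimming in Des+/+ and by -1 in Des-/-.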

How the results depend on the processing

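Read depth is unknown, and peaks near the lowest listed height cannot be told from signal just under it. No paired analysis was possible because each group has 1 library, and for the same reason no replicate could be left out. Counts of member peaks depended on the height limit and on the assignment. With a height of 20 reads or more the H3K27Ac peaks were 18, 20, 18 and 10 (Des+/+ basal, Des-/- basal, Des+/+ swim, Des-/- swim). By gene body they were 25, 26, 22 and 13 in the same order. Under both of these settings Des+/+ basal was no higher than Des-/- basal. Equal numbers of the highest peaks (10407) left 21, 20, 31 and 20, so that Des-/- swim was then no lower than Des-/- basal. With a ratio to input of 5 or more 11 remained in Des-/- swim, but that list itself fell to 4219 peaks (12596, 13873 and 7953 in the others).

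Unpartnered shares fell for peaks of 20 reads or more, to 0.00% in both directions of the basal pair (2.95 and 5.16% of all peaks), 16.7% and 0.00% in the swim pair (8.98 and 8.74%), 11.1% and 0.00% between basal and swim in Des+/+ (19.4 and 1.30%) and 25.0% and 0.00% in Des-/- (24.9 and 1.54%). Equal numbers of peaks gave 22.7% for Des+/+ basal without swim (24.0% of all peaks), 31.2% for the reverse (17.0%) and 25.0% for Des-/- basal without swim (24.4%). Partners sharing 50% of the shorter peak and gene-body assignment left all 8 shares inside their intervals. All 8 alternatives for promoter heights, 2 for each pair of lists, stayed inside the counting interval. By gene body the lamin A/C peaks were 2, 1 and 2 in the first 3 lists and 0 in Des-/- swim, and at 10 reads or more 0 in Des+/+ basal.

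The alternatives for covered bases were chosen after seeing the data. Divided by the covered bases of the list, 2 genes were lower in the basal pair (Jph2 and Cacna1c; 9.24% of all genes), 0 after swimming in Des+/+ (30.4%) and 4 in Des-/- (34.7%). With equal numbers of peaks 0 and 3 genes were lower after swimming in Des+/+ and Des-/- (26.2 and 27.6%). In the swim pair 4 genes were lower in both of these (19.0 and 17.6% of all genes), and 6 with a ratio to input of 5 or more, a limit under which 56.3% of all genes were lower. Ryr2, Casq2, Trdn and Pln were among them each time. Casq2 and Trdn had no peak in Des-/- swim, so that division by the covered bases of the list could not change their call. Each of these 2 genes rests on 1 peak of 16 reads in Des+/+ swim, near the lowest listed height.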
